A study of Auxenochlorella pyrenoidosa with 8 samples.

Results

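The genes described here are the predicted genes of a green alga that carry no intron and a complete coding frame. A gene was taken when every transcript of its deposited model had exactly 1 coding (CDS) feature and 1 exon feature, with both a start codon and a stop codon feature. Of 10284 gene models, 51 met this rule (0.496%), and the upper limit of 200 genes that the rule allows was not reached, so no gene was left out for its length. The rule used gene structure only and no measured level. The comparison group was the 10198 models with 2 or more exon or coding features in at least 1 transcript, called multi-exon genes below. The remaining 35 intronless models lacked a start codon (31) or a stop codon (4).

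The alga was Auxenochlorella pyrenoidosa, also known as Chlorella pyrenoidosa, strain FACHB-9. Cultures were kept photoautotrophically under 5% CO2, switched after 5 days to bubbling with air, and messenger RNA of whole cells was sequenced after 0, 1, 4 and 24 h, in 2 independent experiments (n = 2 libraries per time). The 0 h libraries are cells still on 5% CO2, and every later group is the same strain after that time in air. A culture left on 5% CO2 over the same hours was not analysed here, so hours of handling and the change to air cannot be told apart.

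Most nuclear genes of green algae are interrupted by introns, which the spliceosome removes before the message is translated. A gene with no intron yields a message that skips this step. Known kinds of intronless gene in eukaryotes include copies of messages that were reverse transcribed back into the genome, many short genes for stress and signalling proteins, and, in many lineages, the replication-dependent histone genes, which often stand as divergent pairs in clusters. The files pair no gene number with a name or a product, so what the 51 models encode was not determined, and they are given by number and position. No source used here names the assembly of the scaffolds.

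Between 16706278 and 35463138 reads fell in genes per library, and the intronless genes held 0.370% to 0.407% of them. The libraries labelled 1 h and 24 h crossed. Across the 9326 tested genes, 1 h library 2 correlated at r = 0.992 with 24 h library 1 and at 0.955 with the other 1 h library, while r between the 24 h libraries was 0.934. Across the 50 intronless genes tested, the same values were 0.990, 0.928 and 0.952. These are correlations across genes, which are not independent replicates. Calls, counts and named genes that rest on the 1 h or 24 h labels are therefore mostly also given with those libraries left out. Counts at an unadjusted p are given with all libraries only.

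The intronless models were short. Their median coding length was 411 bp (243 to 1800 bp) beside 1044 bp in multi-exon genes, and their median span was 594 bp beside 3065 bp. Each of the 51 had 1 transcript, 0 had an intron feature, and in all 51 the coding length was a multiple of 3. The median exon reached 177 bp beyond the coding frame, and 48 had an annotated transcription start site and 50 an annotated end site (94.1% and 98.0%, beside 89.8% and 91.5% of multi-exon genes). The median AUGUSTUS score, a value the gene predictor gives to each model, was 0.12 beside 0.11. Both strands were used about equally, with 25 models on plus and 26 on minus. The 35 incomplete models had a median coding length of 258 bp, 15 of them were the only model on their scaffold (42.9%), and 3 had an annotated start site. Of the 51 complete genes, 2 were alone on their scaffold (3.92%, beside 8.54% of multi-exon genes).

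Intronless genes stood at higher levels than multi-exon genes, and the size of that difference depended on the length by which reads were divided. The median of the 8-library means was 66.2 RPKM for the 51 intronless genes and 11.6 RPKM for the multi-exon genes, a ratio of 5.70. RPKM is reads scaled to gene length and to the size of the library, and the deposited values refer to the full gene span with introns. Spliced exons made up 43.5% of the span in the median multi-exon gene and 100% in each of the 51 intronless genes. Per kilobase of spliced length the medians were 66.2 and 26.7 RPKM, a ratio of 2.48. The 35 incomplete intronless models had medians of 72.6 RPKM by span and 83.9 RPKM per spliced kilobase. A higher level was thus not particular to the complete genes. No test was made of any difference in level, since genes are not replicates.

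Library by library, the median of the intronless genes was 63.5 and 71.9 RPKM at 0 h, then 65.8 and 56.1 RPKM at 1 h, next 48.4 and 48.2 RPKM at 4 h, and last 56.9 and 46.6 RPKM at 24 h. The multi-exon medians were 12.2 and 11.9 RPKM at 0 h, then 11.1 and 11.3 RPKM at 1 h, next 10.2 and 10.4 RPKM at 4 h, and last 10.8 and 10.5 RPKM at 24 h. The intronless median was the higher one in 8 of 8 libraries. On the scale log2(RPKM + 1), the difference of the medians over tested genes lay between 1.94 and 2.29 with the span and between 0.861 and 1.20 with the spliced length.

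**Figure D1:**
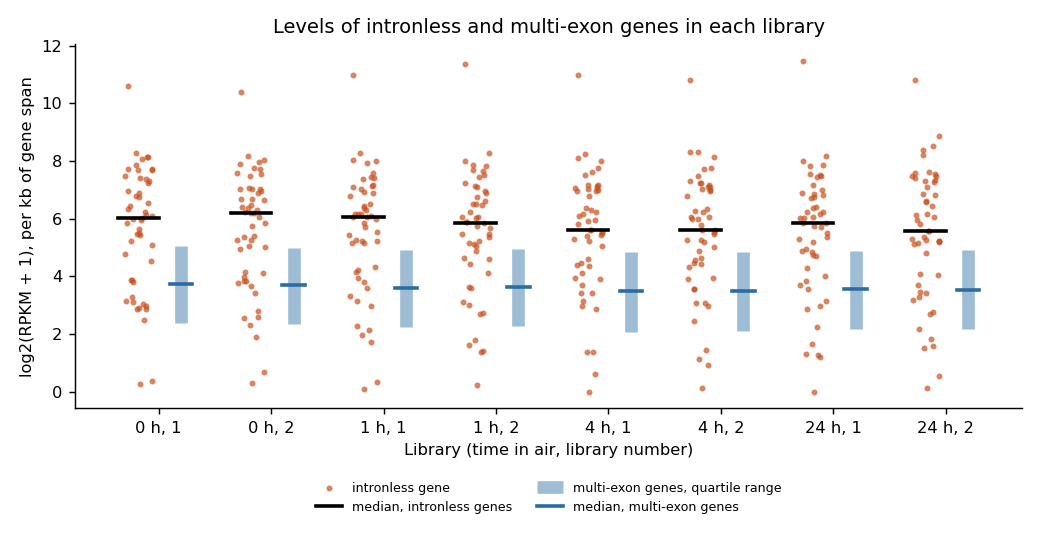
Level of each of the 51 intronless genes (points) in each of the 8 libraries as log2(RPKM + 1) per kb of gene span, with their median (black) beside the median and quartile range of multi-exon genes (blue). The intronless median lies above the multi-exon median in 8 of 8 libraries.

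Coding length also went with the difference. The members were split into 3 classes of 17 genes by coding length, and multi-exon genes were divided between the classes at nearly the same lengths. Among the shortest (243 to 378 bp), the medians per spliced kilobase were 64.3 RPKM for intronless and 67.4 RPKM for 646 multi-exon genes. In the middle class (384 to 474 bp) they were 66.2 and 53.6 RPKM, and in the longest class (504 to 1800 bp) 69.7 and 29.5 RPKM. Per kilobase of span the intronless median was the higher in each class, at 64.4 beside 31.0, 66.2 beside 21.7 and 69.8 beside 12.8 RPKM. Intronless medians thus differed little between the classes, whereas multi-exon medians were lower in each longer class on both scales.

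**Figure D2:**
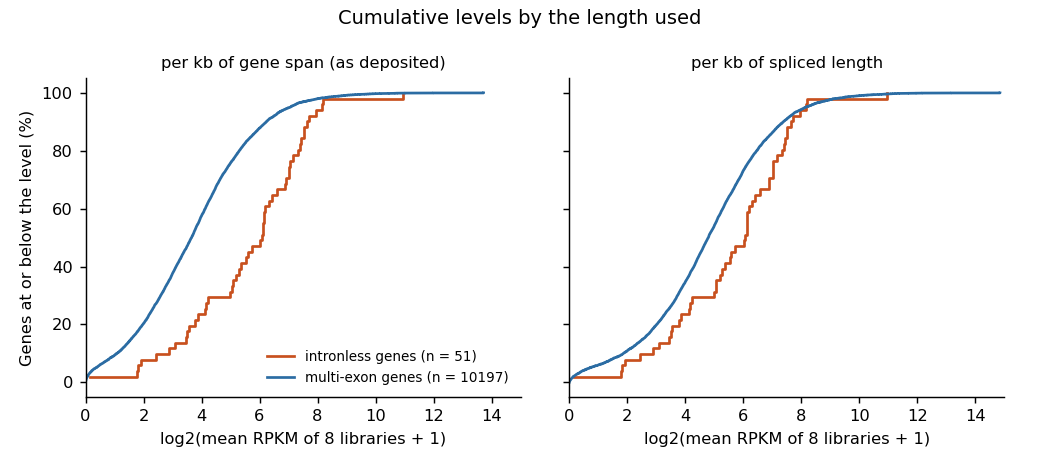
Cumulative share of genes (%) against log2(mean RPKM of 8 libraries + 1), with reads divided by gene span (left) or spliced length (right), for 51 intronless and 10197 multi-exon genes. The gap between the curves narrows from a ratio of medians of 5.70 to 2.48.

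The intronless genes spanned a wide range of levels. Of 50 tested, 33 lay in the highest quartile of tested genes by RPKM (66.0%), and 20 did by spliced length (40.0%). Means above 100 RPKM were reached by 17 of the 51 (33.3%), beside 6.77% of multi-exon genes by span and 17.4% by spliced length. A member had a median of 855 reads per library, and 39 of the 51 had at least 100 reads in every library.

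The most abundant was g9874, a model of 243 bp coding length and 390 bp exon on the plus strand of scaffold01257 (1 to 390), which begins at the first base of that scaffold. It held 1554 and 1331 RPKM at 0 h, then 2010 and 2626 at 1 h, next 2020 and 1788 at 4 h, and last 2868 and 1777 at 24 h. Both 0 h libraries were the lowest of the 8. It took 14.0% to 27.5% of all reads of the intronless genes and ranked 8 among all genes by RPKM and 40 by spliced length. Next was g1123, with a frame of 444 bp at 271761 to 272574 of scaffold00092, minus strand. It held 211 and 260 RPKM at 0 h, then 256 and 311 at 1 h, next 258 and 281 at 4 h, and last 291 and 461 at 24 h, with the single high value in 24 h library 2. The longest frame was that of g8403, with 1800 bp on the plus strand of scaffold01168 (25446 to 27570). It held 158 and 186 RPKM at 0 h, then 169 and 228 at 1 h, next 213 and 216 at 4 h, and last 233 and 179 at 24 h. At 4 h both of its libraries lay above both 0 h libraries, with a log2 fold change of 0.32 with SE 0.23 (limma adjusted p = 0.38). Its neighbour g8402, also intronless and on the same strand 1455 bp upstream, stood at a mean of 7.52 RPKM, and the means of these neighbours differed 26.3-fold.

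At the other end, g4068 on scaffold00514 (2110173 to 2110766, plus strand) was the only member left out of the test, with a mean of 0.108 RPKM. It had between 0 and 3 reads in each library.

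Intronless genes were gathered on scaffold00366. This scaffold carried 691 of all models (6.72%) and 16 of the 51 intronless genes (31.4%), beside 6.62% of multi-exon genes. Of these 16, 15 lay within 551 kb (1651688 to 2202352) that held 98 models in all. The other 35 members were spread over 26 scaffolds, with 5 on scaffold01168 as the next largest number. The median level on scaffold00366 was 39.2 RPKM and elsewhere 69.7 RPKM.

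The same coding lengths recurred. Frames of 312 bp occurred in 6 intronless genes, of 411 bp in 5, of 384 bp in 4 and of 378 bp in 3, which together made 18 of the 51 (35.3%). The same 4 lengths occurred in 68 of 10198 multi-exon genes (0.667%), of which 18, 12, 21 and 17 had 312, 411, 384 and 378 bp. Of the 18 intronless genes, 14 lay within the 551 kb. That stretch was drawn from the first to the last gene of these lengths on scaffold00366, so their place in it follows from its bounds. The lengths were looked up after the models had been seen, and whether models of equal length share sequence was not tested, because no genome sequence was used here. Should they be near-identical copies, reads that match several of them could have been dropped or split in the authors' counting, for which no source used here states the settings. The levels of single copies are uncertain to that extent.

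Where 2 intronless genes were next to each other on scaffold00366, they formed head-to-head pairs of 312 with 411 bp or of 384 with 378 bp. Over the whole genome there were 6 places where 2 members were next to each other, and 5 were divergent pairs within the 551 kb, with 175 to 285 bp between the models. In 3 of these pairs a 312 bp frame faced a 411 bp frame (g3103 with g3104, g3119 with g3120, g3147 with g3148). In the other 2 pairs a 384 bp frame faced a 378 bp frame (g3129 with g3130, g3154 with g3155). A further 312 bp member, g3064, stood head to head at 305 bp with g3065 (1674607 to 1675881, plus strand). That gene has a single 411 bp coding feature but 2 exon features, which puts it among the multi-exon genes. Not every gene of these lengths was so paired. The 411 bp member g3058 faced g3059 at 215 bp, a multi-exon gene of 1599 bp coding length with 4 coding features. The members g3095 (378 bp) and g3113 (384 bp), also within the 551 kb, had no head-to-head neighbour. Head-to-head neighbours within 1000 bp were not themselves rare: 14 of 51 members had one (27.5%), beside 39.8% of multi-exon genes.

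**Figure D3:**
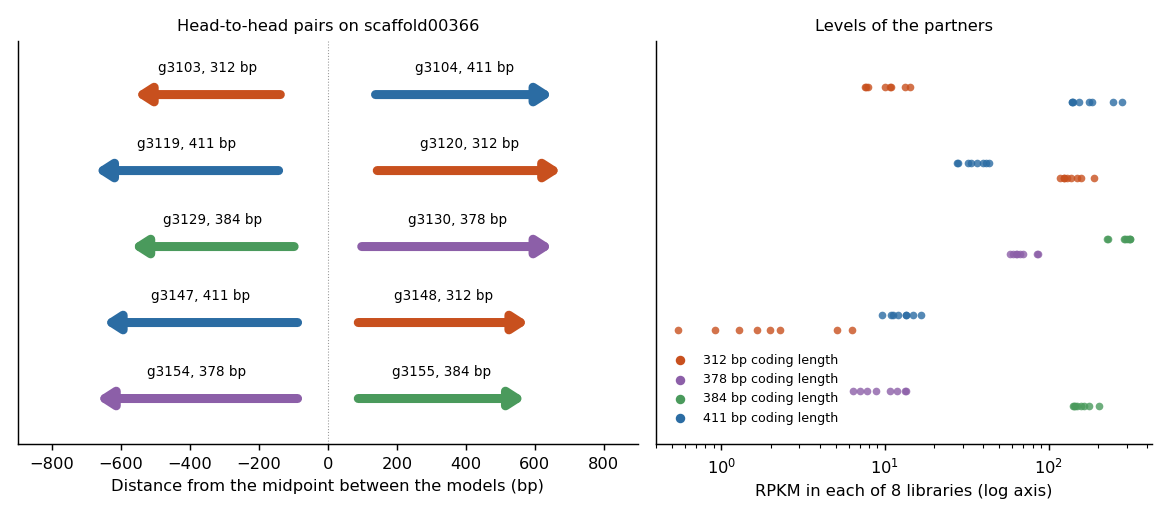
Left, the 5 head-to-head pairs of intronless genes on scaffold00366 drawn as arrows to scale around the midpoint between the models (bp), coloured by coding length. Right, RPKM of both partners in each of the 8 libraries on a log axis, where the partner that is higher is the same in 8 of 8 libraries for each pair.

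Partners of a pair stood at unequal levels that kept their order in every library. In the pair with the highest summed level, g3129 (384 bp, minus strand, 2071585 to 2072058) held 313 and 287 RPKM at 0 h, then 312 and 229 at 1 h, next 301 and 314 at 4 h, and last 229 and 292 at 24 h. Its partner g3130 (378 bp, plus strand, 2072254 to 2072808) held 85.8 and 84.8 RPKM at 0 h, then 70.1 and 57.8 at 1 h, next 67.4 and 62.9 at 4 h, and last 64.1 and 61.0 at 24 h. For g3130 both 0 h libraries lay above all others, with a log2 fold change at 4 h of -0.38 (SE 0.17, limma adjusted p = 0.18), whereas the groups of g3129 overlapped, at 0.03 (SE 0.23, limma adjusted p = 0.93).

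In the pairs of 312 and 411 bp, the higher partner was the 411 bp gene in g3103 with g3104 (means of 10.3 and 183 RPKM) and in g3147 with g3148 (12.8 beside 2.51 RPKM). It was the 312 bp gene in g3119 with g3120 (35.4 and 141 RPKM). In g3154 with g3155 the means were 9.93 and 160 RPKM. The ratio of the partners' means ran from 3.99 to 17.8 over the 5 pairs, and in each pair the same partner was the higher in 8 of 8 libraries. The same-strand neighbours g8402 and g8403 also kept their order in 8 of 8. Pairs of multi-exon genes were not compared in this way. Of the 10 genes in the 5 pairs, 2 fell at 4 h by the test given next, g3104 and g3148. Over all tested genes 9.97% fell. The partners g3103 and g3147 did not pass, and the difference between partners was not tested.

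After 4 h in air, 8 of the 50 tested intronless genes fell and 0 rose (limma, adjusted p under 0.05). That is 16.0% called, beside 12.1% of all 9326 tested genes in either direction. For falls alone the share over all genes was 9.97% and for rises 2.16%, so the members' share called was near the background. With RNA of whole cultures, fewer cells that use a gene and less of its RNA per cell cannot be told apart. Of 9241 multi-exon genes tested, 916 fell and 201 rose. The 8 genes fell 1.81-fold to 7.79-fold in their means, from 0 h levels between 5.15 and 266 RPKM. They lay on 7 scaffolds, with 2 on scaffold00366, and their coding lengths ran from 276 to 1218 bp. An unadjusted p under 0.05 was reached by 16 intronless genes (32.0%), beside 2920 of all 9326 genes (31.3%).

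The median log2 fold change at 4 h was -0.17 over the intronless genes, -0.20 over multi-exon genes and -0.20 over all tested genes, so the intronless median lay close to the shift of all genes. Of the 50, 29 lay below 0 and 21 above. Under trimmed-mean scaling and under voom on the recovered reads, the intronless median stood at 0.03 and 0.02, and those settings called 4 and 3 intronless genes (8.0% and 6.0%), all of which fell. Over all tested genes they called 7.79% and 7.45%, of which 294 and 278 genes rose. The 8 called genes stood between -0.83 and -1.95. That they lay beyond the shift follows from their selection on the same values. A change apart from the shift was not tested. Between 0 h and 4 h the libraries did not overlap for 32 of the 50, with 21 lower and 11 higher at 4 h (42.0% and 22.0%). Over all tested genes 69.9% did not overlap, with 48.9% lower and 21% higher.

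**Figure D4:**
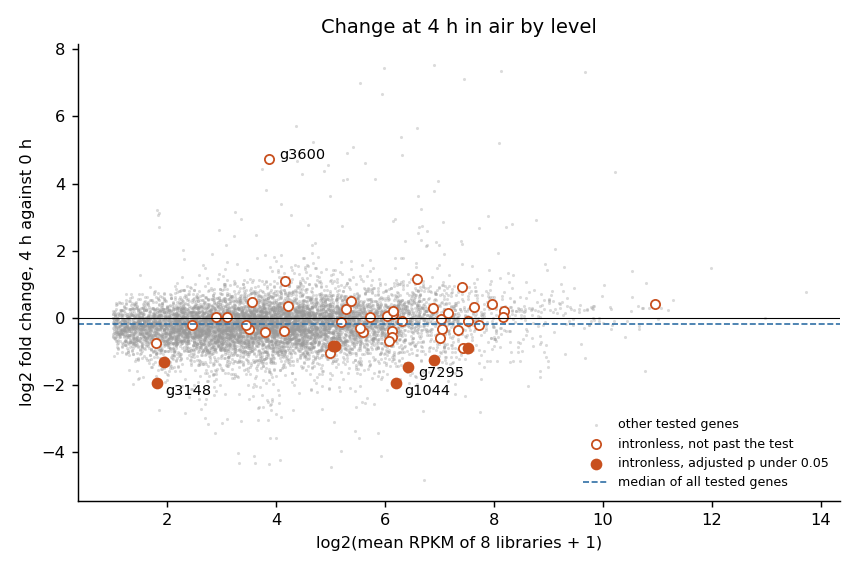
Log2 fold change at 4 h against 0 h by mean level, log2(mean RPKM of 8 libraries + 1), for tested intronless genes (orange; filled at an adjusted p under 0.05) over the other tested genes (grey). The 8 filled points lie between -0.83 and -1.95, below the dashed median of all tested genes at -0.20. They were chosen by the test on these same values.

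The first of the named falls was g3148, a 312 bp frame at 2155258 to 2155752 of scaffold00366, plus strand. It held 6.30 and 5.08 RPKM at 0 h, then 2.27 and 1.66 at 1 h, next 0.547 and 0.913 at 4 h, and last 1.28 and 1.98 at 24 h. Both 0 h libraries lay above the other 6, and both 4 h libraries below. The mean at 0 h was 5.69 ± 0.862 RPKM and that at 4 h 0.730 ± 0.259 RPKM (SD, n = 2 for both), for a log2 fold change of -1.95 with SE 0.22 (limma adjusted p = 0.0042). The 4 h values rest on 5 and 16 reads, beside 52 and 58 at 0 h. It was called in 16 of 17 alternatives, with an adjusted p of 0.0036 to 0.056, and the exception left out 4 h library 1. Over these alternatives its log2 fold change ran from -2.83 to -1.66, and its order with g1044, the next gene, turned under quantile normalization and without 0 h library 2 or 4 h library 1.

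The other named fall was g1044, with a 474 bp frame on the plus strand of scaffold00068 (259661 to 260511). It held 207 and 98.7 RPKM at 0 h, then 62.0 and 43.6 at 1 h, next 42.1 and 31.4 at 4 h, and last 56.9 and 36.8 at 24 h. All 6 later libraries lay below both 0 h libraries, which differed from each other. The mean at 0 h was 153 ± 76.3 RPKM and that at 4 h 36.8 ± 7.59 RPKM, for a log2 fold change of -1.94 with SE 0.39 (limma adjusted p = 0.025). Leaving out 0 h library 1 or either 4 h library ended the call, and over the libraries left out in turn the log2 fold change ran from -2.47 to -1.42.

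The 8 called genes were chosen for low levels at 4 h against 0 h, which fixes much of their course, so the following values are a description. Their median log2 fold change was -0.70 at 1 h, -1.30 at 4 h and -0.68 at 24 h, all against the same 0 h libraries. In 6 of them both 1 h libraries, and in 7 both 24 h libraries, lay below both 0 h libraries. Over all tested genes, not chosen in this way, 28.1% and 33.9% did. The counts were not repeated with 1 h or 24 h libraries left out. The number of calls rested on single libraries, as it did over all genes. It was 0 without 4 h library 1, 1 without 4 h library 2, and 2 without 0 h library 1 (g3148 and g7295), where 0.418%, 0.503% and 1.60% of all tested genes were called. Without 0 h library 2 it was 10, beside 16.5% of all genes. Without either 1 h library it was 8, of which 7 fell and 1 rose, since g533 was lost and g3600 was called (9.80% and 9.78% of all genes). Without either 24 h library the same 8 genes were called, beside 15.8% and 15.6%. The fit with only the 0 h and 4 h libraries called 12 (24.0%), of which 9 fell and 3 rose, beside 20.2% of all genes.

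No intronless gene rose past the test at 4 h, but 3 had log2 fold changes above 1, given here as values chosen after they were seen. g3600, an 831 bp frame that is the only model on scaffold00432 (1591 to 2611, minus strand), held 0.293 and 0.594 RPKM at 0 h, then 0.275 and 23.3 at 1 h, next 32.5 and 43.1 at 4 h, and last 7.83 and 0.455 at 24 h. Its log2 fold change was 4.74 (SE 1.44, limma adjusted p = 0.082), the highest among the intronless genes. The high values outside 4 h were in 1 h library 2 and 24 h library 1, the pair that correlated at r = 0.992. The 0 h level rested on 5 and 14 reads. The fit pools the spread over all 4 groups, so the unequal 1 h and 24 h libraries enter the SE at 4 h. It was called in 3 of 18 alternatives, namely without either 1 h library (limma adjusted p = 0.027 for each) and when the fit held just the 0 h and 4 h groups (limma adjusted p = 0.00030). Over all 18 the adjusted p reached 0.35.

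The other values above 1 were those of g9603 and g4722. g9603 (1464 bp frame, scaffold01246, 438448 to 440041, minus strand) held 43.9 and 88.9 RPKM at 0 h and 131 and 149 at 4 h, with 81.4 to 96.6 RPKM in the 1 h and 24 h libraries. Its log2 fold change was 1.15 (SE 0.31, limma adjusted p = 0.054). It was called without 0 h library 2 (adjusted p = 0.019, limma) and with the replicate number as a block (adjusted p = 0.048, limma), and not without 0 h library 1. g4722 (408 bp frame, scaffold00629, 802071 to 802764, minus strand) held 6.56 and 11.7 RPKM at 0 h and 19.6 and 20.6 at 4 h. Its 1 h libraries held 12.9 and 28.4 RPKM and its 24 h libraries 25.6 and 9.75 RPKM. The log2 fold change at 4 h was 1.10 (SE 0.52, limma adjusted p = 0.19). It was called in 1 of 18 alternatives, when the fit held just the 0 h and 4 h groups (limma adjusted p = 0.040). Neither gene overlapped between 0 h and 4 h.

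**Figure D5:**
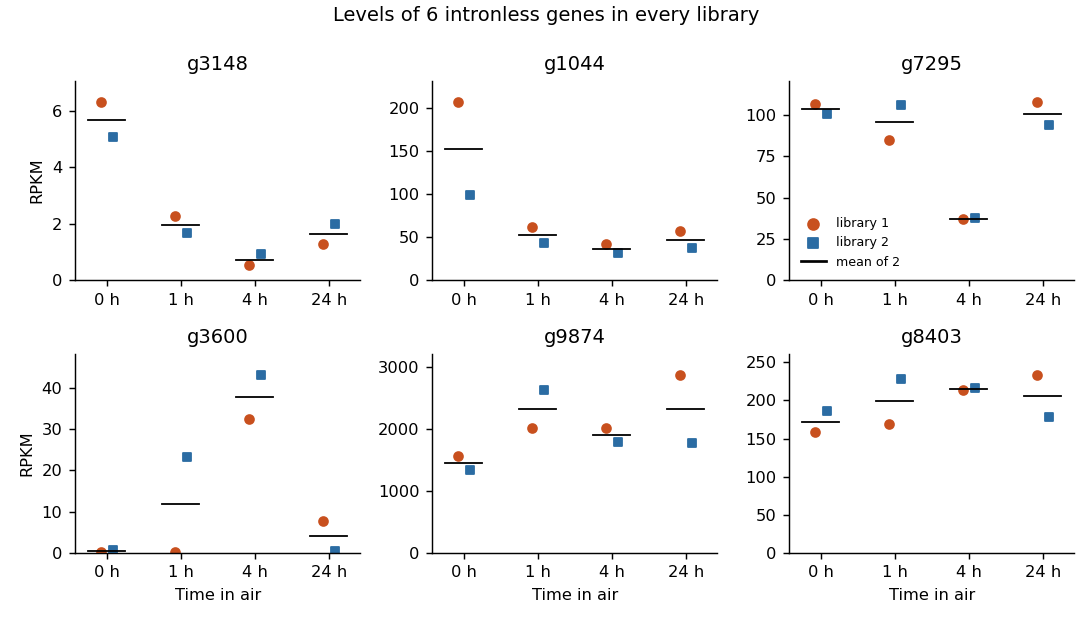
RPKM of 6 intronless genes in each library at 0, 1, 4 and 24 h in air, with the mean of 2 libraries as a bar. g3148 and g1044 are highest at 0 h, g7295 is low in both 4 h libraries only, and g3600 is high at 4 h and in 1 library each of 1 h and 24 h.

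At 1 h in air, 0 of 50 intronless genes passed the test in limma and 0 in voom, as did 0% of all tested genes. At an unadjusted p under 0.05 there were 11 in limma and 7 in voom, beside 953 and 844 of all 9326 genes. The median log2 fold change of the intronless genes was -0.10, beside -0.08 over all tested genes. Without 1 h library 1 or 2 it was -0.24 or -0.011. The libraries did not overlap for 9 higher and 15 lower intronless genes (18% and 30%), beside 41.1% of all tested genes, 13% higher and 28.1% lower. With 1 h library 1 left out these counts were 16 and 28 (32% and 56%), beside 31.1% and 44.9% of all tested genes. With 1 h library 2 left out they were 14 and 19 (28% and 38%), beside 23.7% and 43.8%. All these shares are larger since a single library overlaps less often. By the rule for named genes, the rise with the smallest p was that of g9874, at 0.68 (SE 0.29, limma adjusted p = 0.49), and the fall with the smallest p that of g3148, at -1.18 (SE 0.22, limma adjusted p = 0.26). Neither was called when any library labelled 1 h or 24 h was left out, and the log2 fold change over all alternatives ran from 0.44 to 0.87 for g9874 and from -1.50 to -1.03 for g3148.

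At 24 h, again 0 of 50 passed in limma and 0 in voom, with 0% of all tested genes called. An unadjusted p under 0.05 was reached by 14 intronless genes in limma and 12 in voom, beside 1716 and 1383 of all 9326 genes. The median log2 fold change of the intronless genes was -0.21, beside -0.16 over all tested genes. Without 24 h library 1 or 2 it was -0.14 or -0.33. Without overlap, 7 intronless genes were higher and 20 lower (14.0% and 40.0%), beside 45.8% of all tested genes, 11.9% higher and 33.9% lower. With 24 h library 1 left out the counts were 11 and 25 (22% and 50%), beside 24.9% and 52.0% of all tested genes. With 24 h library 2 left out they were 16 and 30 (32% and 60%), beside 27.2% and 50.4%. The rise with the smallest p was that of g2629, a 450 bp frame on the plus strand of scaffold00279 (902068 to 902652). It held 109 and 82.0 RPKM at 0 h, then 71.5 and 208 at 1 h, next 180 and 177 at 4 h, and last 188 and 332 at 24 h, with a log2 fold change of 1.39 with SE 0.49 (limma adjusted p = 0.24). All 4 libraries of 4 h and 24 h lay above both 0 h libraries, while the 1 h libraries lay on either side. The fall with the smallest p was again g3148, at -1.35 (SE 0.22, limma adjusted p = 0.14), and neither gene was called in any alternative.

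Between 1 h and 4 h, 1 of 50 intronless genes fell and 0 rose, which is 2.0% called beside 0.407% of all tested genes. From 4 h to 24 h, 1 rose and 0 fell, beside 0.697%. The median log2 fold changes were -0.03 and -0.01, beside -0.10 and 0.05 over all tested genes. Without overlap, 7 were higher and 15 lower at 4 h than at 1 h, where 54.6% of all tested genes did not overlap (17.1% higher, 37.5% lower). At 24 h against 4 h, 16 were higher and 11 lower, where 47.6% did not overlap (29.2% higher, 18.3% lower). Without 1 h library 1 the first pair of counts was 18 and 24 (36% and 48%), beside 30.1% and 53.4% of all tested genes. Without 1 h library 2 it was 14 and 24 (28% and 48%), beside 31.6% and 54.9%. Without 24 h library 1 the second pair was 25 and 21 (50% and 42%), beside 47.1% and 39.6%. Without 24 h library 2 it was 23 and 18 (46% and 36%), beside 49.6% and 34.1%. Both calls are of g7295, a 384 bp frame on the minus strand of scaffold01010 (1977 to 2430), a scaffold with 2 models. It held 107 and 101 RPKM at 0 h, then 85.3 and 106 at 1 h, next 36.9 and 37.5 at 4 h, and last 108 and 93.9 at 24 h. Only the 4 h libraries were low, and the other 6 lay between 85.3 and 108 RPKM. The log2 fold change at 4 h was -1.45 against 0 h (SE 0.19, limma adjusted p = 0.0062) and -1.33 against 1 h (SE 0.19, limma adjusted p = 0.040). From 4 h to 24 h it was 1.41 (SE 0.19, limma adjusted p = 0.043). The last 2 calls were close to the threshold and held in 8 and 9 of 18 alternatives. The size changed little, from -1.49 to -1.18 and from 1.31 to 1.51. Without 1 h library 1 or 2 the fall from 1 h to 4 h had an adjusted p of 0.090 and 0.16, and without 24 h library 1 or 2 the return had 0.067 and 0.069 (limma). The replicate number as a block also ended both calls, at 0.10 and 0.084.

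An F test joined the 3 comparisons with 0 h. It called 2 of 50 intronless genes, g3148 and g7295, each with a limma adjusted p of 0.025, which is 4.0% beside 1.82% of all tested genes. With any single 0 h or 4 h library left out neither was called. With the replicate number as a block neither was called either (lowest limma adjusted p = 0.062), and 0.354% of all tested genes were.

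Over the 4 times, the group mean was highest at 0 h for 26 of the 50 (52.0%), at 4 h for 14 (28.0%), at 24 h for 6 (12.0%) and at 1 h for 4 (8.0%). Among multi-exon genes the shares were 48.9%, 21.5%, 14.4% and 15.1%. The mean was lowest at 4 h for 19 intronless genes (38.0%, beside 45.9%) and at 24 h for 14 (28.0%, beside 23.6%). With each library labelled 1 h or 24 h left out in turn, 22 to 25 were highest at 0 h, 10 to 14 at 4 h, 5 to 10 at 24 h and 5 to 11 at 1 h, and 14 to 21 were lowest at 4 h and 6 to 18 at 24 h. The highest group mean was 1.60 times the lowest in the median intronless gene and 1.47 times in the median multi-exon gene. For 23 intronless genes (46.0%) the 4 means stayed within 1.5-fold, beside 53.0% of multi-exon genes. Between the libraries of a group the median SD was 0.229 on the log2 scale beside 0.224.

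The 18 genes of recurring coding length had a median of 44.9 RPKM and a median log2 fold change at 4 h of -0.36. Of these 18, 12 lay below 0 and 4 were called, all of which fell. Over all 9326 tested genes, 6073 lay below 0, and 12.1% were called, with 9.97% as falls. The other 32 tested genes had a median log2 fold change of -0.07, with 4 called. By length, the log2 fold changes at 4 h ran from -1.95 to 0.25 at 312 bp, from -0.91 to 0.01 at 411 bp, from -1.45 to 0.36 at 384 bp and from -0.38 to 0.02 at 378 bp. Genes of 1 length thus lay on both sides of 0, and these lengths were grouped after the data had been seen. On scaffold00366 the median log2 fold change was -0.18, and on the other scaffolds -0.16.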

How the data were processed

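RNA-seq of 8 libraries was analysed. The deposited table holds RPKM values per gene that the authors computed, per the file headers. TopHat and HTSeq are named in the submitters' processing notes, without versions. The TruSeq kit is named in the labels' protocols. Strandedness is stated by no source used here. Gene models were deposited as AUGUSTUS output with a score each, per the file headers, and give start and end positions counted from 1. Reads were recovered from the RPKM: with gene end minus start as the length, 100% of values came out whole within 0.01 reads in every library, so the values refer to the full span. Between 16706278 and 35463138 reads were recovered per library. 1 model has no RPKM.

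From the RPKM, log2(RPKM + 1) was fitted with limma 3.58.1 in R 4.3.3 on the 9326 genes whose mean RPKM reached 1 (all 8 libraries, 4 groups, intensity trend, robust moderation, 4 residual and 3.63 median prior degrees of freedom). Fold changes on this scale understate the change of low genes. A call needed a two-sided p, adjusted over all tested genes by the Benjamini-Hochberg method, under 0.05. The labels and design text describe 2 independent experiments. The fit was also run on simulated data with independent noise for each gene. Those data held no shift shared by a library and no crossed libraries. That run therefore cannot show how far calls rest on single libraries here. Figures were drawn with matplotlib 3.10.9.

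For each contrast, the rule named up to 2 called rises and 2 called falls of largest log2 fold change without overlap (g3148, g1044, g7295), or, with no call, the rise and fall of smallest p. It also named the 3 most abundant genes, the longest frame and the adjacent pair of highest summed level. Genes outside the rule are said to be so or belong to the pairs. The members and lists were chosen with earlier results of these data known. Keyword lists of gene functions could not be measured, since the files name no gene.

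Alternatives changed the pseudocount (0.1), the filter (none, or a mean of 5 RPKM), the scaling (a trimmed mean that drops the outer 30% of log ratios and 5% of levels on both sides, or quantile), the length, the moderation, the groups in the fit, the test (voom on recovered reads), the replicate block and each library in turn. Leaving out the members on scaffold00366, and recounting overlaps and highest times without each library labelled 1 h or 24 h, were choices made once the data had been seen.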

Additional observations from a re-analysis of the deposited data

Results flagged for a closer look

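Changes from 0 h differed between time points, by the test of the difference itself, for 1 intronless gene. For g7295 the value at 4 h lay below that at 1 h by a log2 fold change of -1.33 (limma adjusted p = 0.040), and the value at 24 h lay above that at 4 h by 1.41 (limma adjusted p = 0.043). Each uses libraries labelled 1 h or 24 h, whose crossing was described above. Without 1 h library 1 or 2 the first log2 fold change was -1.49 or -1.18. Without 24 h library 1 or 2 the second was 1.31 or 1.51. The calls held in just 8 and 9 of 18 alternatives, and whether labels were exchanged was not tested.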

How the results depend on the processing

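Of the 8 falls at 4 h, 4 were called under trimmed-mean scaling, 5 under quantile normalization and 3 in voom, and 0 to 10 intronless genes were called with each library left out. Quantile normalization called 5 of 50 intronless genes, beside 6.58% of all tested genes. Trimmed-mean scaling and voom called 7.79% and 7.45% of all tested genes. The median log2 fold change at 4 h moved from -0.17 to 0.028, -0.034 and 0.015 under the same 3 settings, and lay between -0.29 and -0.10 with a library left out. At 1 h it was 0.0053 in voom (-0.24 to -0.011 with a library left out), and at 24 h -0.041 under trimmed-mean scaling and -0.042 in voom (-0.33 to -0.14). From 4 h to 24 h it lay between -0.045 and 0.11. The cause of these shifts was not tested.

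The single call between 1 h and 4 h became 0 with no filter, in voom, and with only the groups of the contrast, and the single call from 4 h to 24 h became 0 with no filter and with only the groups of the contrast. With a library left out each count was 0 or 1. With no filter, 0.185% of all tested genes were called between 1 h and 4 h and 0.117% from 4 h to 24 h. The 2 calls of the F test became 1 with a mean of at least 5 RPKM. There g3148, at a mean of 2.51 RPKM, was not tested, and 1.85% of all tested genes were called. The F test also called 1 in voom and 1 without the members on scaffold00366 (fewer genes are counted there). The level difference of 2.08 on the log2 scale was 2.26 with no filter, 1.73 with a mean of at least 5 RPKM, 1.00 per spliced kilobase and 2.25 without scaffold00366. For g3148, g1044, g7295, g9874 and g2629, in the contrasts for which each was named by its change, no alternative reversed the direction.

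Same-numbered deviations from the group means correlated between -0.728 (1 h with 24 h) and 0.35 (0 h with 4 h). The lowest value comes from the times whose libraries crossed. Whether the replicate numbers pair the libraries cannot be told from these values. With the replicate block 8 of 50 intronless genes were called at 4 h (7 fell and 1 rose), beside 8.9% of all tested genes. In that setting 0 intronless genes were called between 1 h and 4 h, 0 from 4 h to 24 h and 0 in the F test. Of all tested genes it called 0 between 1 h and 4 h, 0 from 4 h to 24 h and 0.354% in the F test. With 2 libraries a group, counts of calls rest on single libraries, and genes such as g3148, at 5 reads in a library, carry counting error of their own.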
